A study of Mus musculus with 2 samples.

Results

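The 10 genes described here encode the stress-activated branch of the MAP kinase cascade and were 10 of the 30431 genes listed for 2 single-nucleus RNA libraries of mouse dorsal CA1. They were chosen by gene symbol, with the UMI counts of both libraries known, and comprise Map3k5, Map2k3, Map2k6, Map2k4, Map2k7, the c-Jun N-terminal kinase (JNK) genes Mapk8, Mapk9 and Mapk10, and the p38 genes Mapk11 and Mapk14. Since earlier results of these libraries were in view when the set was proposed, its values are a description with no test. Both libraries came from male C57BL/6J mice carrying Calb1::Cre and the Tdtomato reporter. They were 6 to 7 weeks old when treated. Mice of the epilepsy condition had received repeated kainate injections (5 mg/kg) until status epilepticus, a state of continuous seizures, which diazepam (4 mg/kg) ended. Control mice had received vehicle and otherwise like handling, and did not receive the convulsant. Nuclei were prepared 12 weeks after status, in the chronic phase. Per the labels there were 2 mice in each condition, and whether their nuclei were pooled is not stated. The Cre driver follows Calb1, the calbindin gene, whose expression marks superficial pyramidal neurons, but no selection of nuclei for the reporter is stated. Kainate was given intraperitoneally, and 15000 sorted nuclei per sample were loaded.

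The control library held 3661 nuclei and 11858162 unique molecular identifiers (UMIs, each counting 1 captured RNA molecule), with a median of 3447 per nucleus. The epilepsy library held 3078 nuclei and 7112131 UMIs, with a median of 2443. Of the nuclei, 16 barcodes occurred in both libraries. Each condition is 1 library, so differences between the conditions have no replicate error and were not tested. Levels are given as CPM, the UMIs of a gene scaled to 1000000 UMIs of its class, with 95% intervals that cover counting error only. Classes carry the suffix "-like" because they rest on marker genes, and they were rebuilt here. CA1 pyramidal-like nuclei numbered 2842 (control) and 2341 (epilepsy). This class held most nuclei. It was named from 9 pyramidal markers, so their level there does not test the label of dorsal CA1 pyramidal layer. None of the 9 was at 0 in the class, and they summed to 3209 CPM in control and 3345 CPM in epilepsy nuclei. In other control classes the same sum was 2742 CPM (microglia-like), 1891 CPM (oligodendrocyte-like) and 780 CPM (interneuron-like). Of the pyramidal nuclei, 603 and 482 were deep-like (high in Ndst4 and Col11a1, low in Calb1), 1316 and 1126 were superficial-like (the reverse, in 3 clusters), and 923 and 733 met neither rule. Sox5 and Enpp2, which had been listed as deep markers, were not higher in the deep-like cluster. Interneuron-like nuclei numbered 196 and 143, oligodendrocyte-like 222 and 311, and microglia-like 36 and 37.

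Stress MAP kinases work in a relay of phosphorylation. A MAP3K such as ASK1, the product of Map3k5, phosphorylates MAP2Ks, which in turn phosphorylate a threonine and a tyrosine in the activation loop of p38 or JNK. MKK3 (Map2k3) and MKK6 (Map2k6) act on p38, MKK7 (Map2k7) on JNK, and MKK4 (Map2k4) on both. In hippocampal neurons the branch is known for its part in responses to oxidative stress, inflammation and excitotoxic injury, and the brain-enriched JNK3 (Mapk10) in particular for neuronal death after kainate. RNA levels do not show whether a kinase is phosphorylated.

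The coding stretches around the activation loop show what separates JNK from p38 and how much the genes differ in sequence. Each stretch of 45 bases, 5′ to 3′, is from the GENCODE M21 transcripts of GRCm38. Capitals mark the 9 bases that encode threonine-proline-tyrosine in the JNK genes and threonine-glycine-tyrosine in the p38 genes.
Mapk8: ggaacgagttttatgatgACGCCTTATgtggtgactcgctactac
Mapk9: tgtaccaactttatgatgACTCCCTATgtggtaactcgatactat
Mapk10: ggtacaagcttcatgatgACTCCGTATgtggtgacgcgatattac
Mapk11: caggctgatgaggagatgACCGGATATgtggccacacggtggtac
Mapk14: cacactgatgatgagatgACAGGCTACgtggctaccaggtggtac
Over the aligned coding sequence the 3 JNK pairs shared between 75.5% and 76.4% of bases, Mapk11 and Mapk14 71.2%, and Map2k3 and Map2k6 73.8%. The longest run shared by the transcripts of any JNK pair was 27 bases, by the 2 p38 genes 20 bases, and by Map2k3 and Map2k6 23 bases. Each of these runs is shorter than the 75 bp reads that the labels state; intronic sequence was not compared.

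The genes differed in span and position (GRCm38). Map3k5 lies at chr10:19934472-20142753 on the plus strand, Map2k3 at chr11:60932033-60952811 (plus), Map2k6 at chr11:110399122-110525522 (plus) and Map2k4 at chr11:65688243-65788297 (minus). Mapk8 lies at chr14:33377898-33447158 (minus), Mapk9 at chr11:49846751-49886421 (plus), Mapk10 at chr5:102907948-103211334 (minus), Mapk11 at chr15:89142486-89149628 (minus) and Mapk14 at chr17:28691329-28748406 (plus). Mapk10 spans 303.4 kb and Mapk11 7.1 kb. The sources used here do not give whether intronic reads entered the counts, and gene length and intron content bear on nuclear counts, so levels in CPM are compared within a gene. Where a gene's share among related genes is given, it is a share of UMIs to be compared between classes or libraries, and it does not rank the genes by transcript abundance.

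Across all CA1 pyramidal-like nuclei, Map3k5 was the only gene of the branch called different between the libraries. A gene was called higher or lower where it had at least 50 UMIs over both libraries and a log2 ratio of at least 0.32 in size. Of the 10 genes 9 had the UMIs; Map3k5 was called higher in epilepsy (19.1 CPM in control, 27.2 CPM in epilepsy, log2 ratio 0.51, interval 0.20 to 0.83), and 0 were called lower. Over all 11076 genes with 50 UMIs, 17.9% were called higher and 15.9% lower, so 1 of 9 and 0 of 9 were not above the background. Mapk8 lay just under the threshold, at 73.2 CPM in control and 59.3 CPM in epilepsy, a log2 ratio of −0.30 (−0.49 to −0.12). Map2k4, at −0.17 (−0.29 to −0.05), and Mapk10, at 0.12 (0.08 to 0.17), also had intervals that exclude 0. The median log2 ratio of epilepsy to control over the 9 genes was 0.05, and over all genes 0.00. The sublayers differed from this average, and are described gene by gene from the top of the relay downwards. The plot of levels by class shows them for 9 genes.

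**Figure D1:**
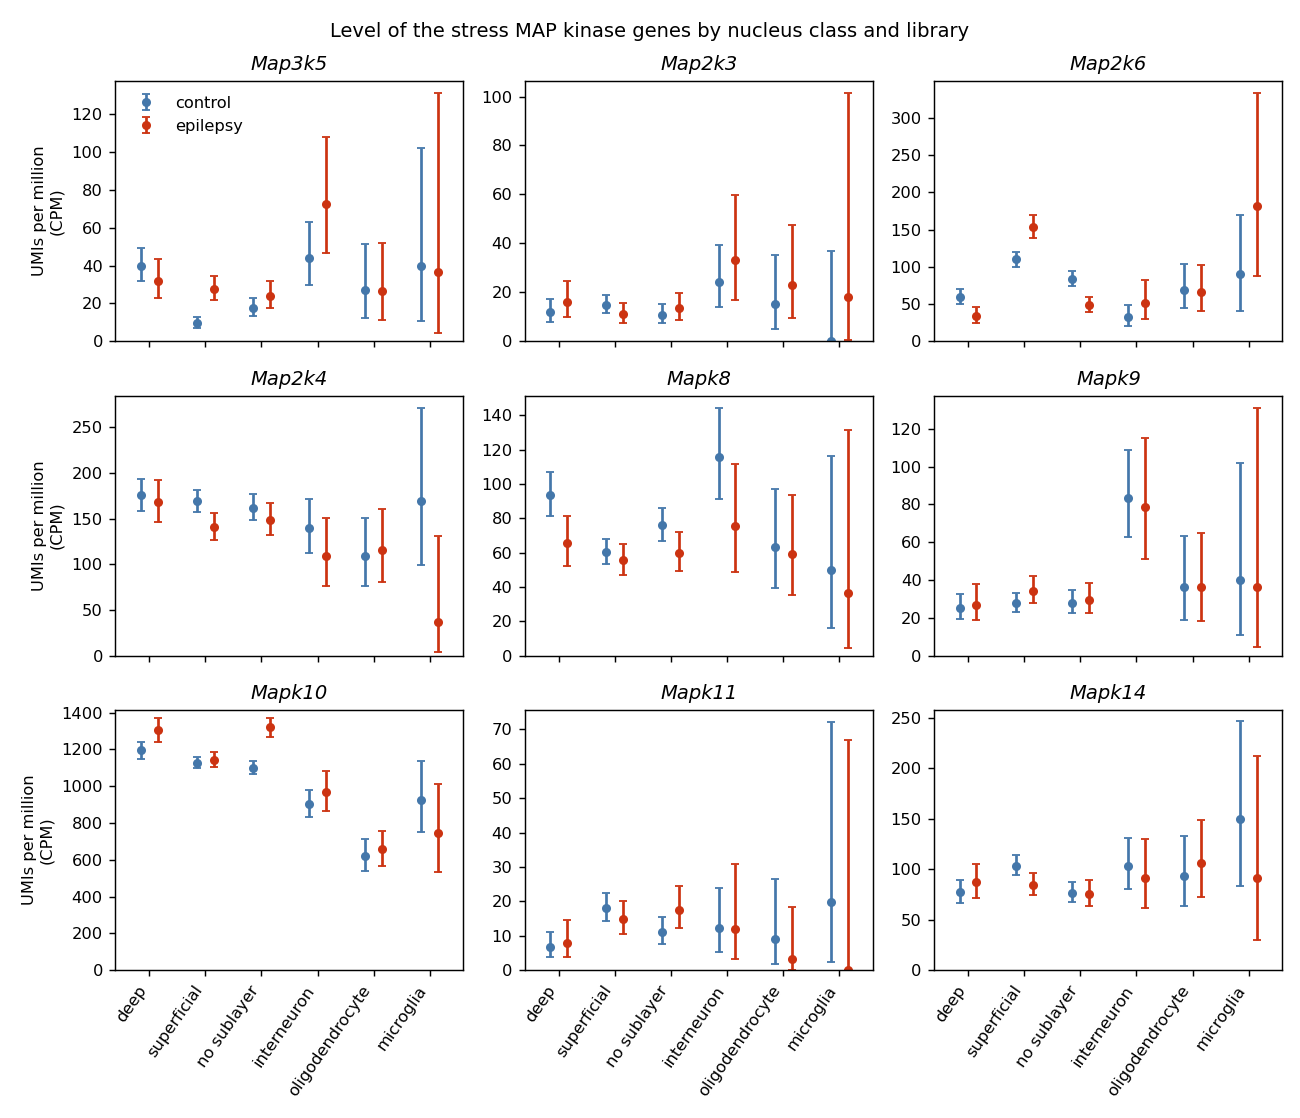
Level of each gene (CPM, linear axis from 0) in 6 nucleus classes of the control (blue) and epilepsy (red) library, each point being 1 class of 1 library with its 95% Poisson interval. Map3k5 was at 9.50 CPM in control superficial-like nuclei against 27.6 CPM in epilepsy, Map2k6 was higher in superficial-like and lower in deep-like nuclei of the epilepsy library, and intervals in microglia-like nuclei are wide.

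Map3k5 encodes ASK1, a MAP3K that is held inactive by thioredoxin and released under oxidative stress. In control nuclei its level was 39.9 CPM in deep-like nuclei (90 UMIs, interval 32.1 to 49.0) and 9.50 CPM in superficial-like nuclei (41 UMIs, 6.82 to 12.9). In the epilepsy library the level was 31.7 CPM in deep-like nuclei (40 UMIs) and 27.6 CPM in superficial-like nuclei (73 UMIs, 21.6 to 34.7). The control library thus had a 4.20-fold higher level in deep-like nuclei (2.87 to 6.23), and the epilepsy library a 1.15-fold higher one (0.762 to 1.71). Between libraries, superficial-like nuclei had a log2 ratio of 1.54 (0.97 to 2.13), which is 2.90-fold higher in epilepsy. Deep-like nuclei had a log2 ratio of −0.33, with an interval of −0.91 to 0.22 that includes 0. That deep-like value changed sign in 2 of 9 other settings, to 0.076 with doublets kept and 0.12 with pyramidal nuclei split at the median of a marker score.

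The higher Map3k5 level was present in both larger superficial-like clusters. In the cluster led by Necab1, Pcdh7 and Grik4 the level was 7.14 CPM in control and 30.7 CPM in epilepsy, a log2 ratio of 2.10. In the cluster led by Tenm3 and Lingo2 it was 10.9 and 27.5 CPM, a log2 ratio of 1.34. The third superficial-like cluster, of low UMI counts and led by Ajm1 and Ptgds, had 9 and 8 UMIs and a log2 ratio of 0.45 with an interval of −1.12 to 2.00. No nucleus of these classes held more than 2 Map3k5 UMIs. With each nucleus thinned to 1000 UMIs, the share of superficial-like nuclei with a Map3k5 UMI was 0.781% in control (10 of 1280) and 2.50% in epilepsy (26 of 1039); without thinning it was 2.96% and 6.22%, at median depths of 3439 and 2446 UMIs. No class here is known to lack Map3k5, so these shares have no background share beside them.

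Other neurons near CA1 had more Map3k5 than any pyramidal group of CA1. Dentate granule-like nuclei of the control library (153 nuclei) were at 126 CPM, and CA2/CA3 pyramidal-like nuclei of the epilepsy library (52 nuclei) at 193 CPM. The summed level of 5 dentate markers was 2606 CPM in those dentate granule-like nuclei, but also 2115 CPM in control and 2868 CPM in epilepsy oligodendrocyte-like nuclei, so it does not single out dentate RNA. In superficial-like nuclei the same sum was 41.5 CPM in control and 60.5 CPM in epilepsy, with 4 of 5 markers higher and C1ql2 at 0 in both libraries. In deep-like nuclei it was 43.4 and 32.5 CPM, with 0 of 5 higher, C1ql2 at 0 in both libraries and Dsp at 0 in epilepsy. The sum of 5 CA2/CA3 markers was 51.9 and 59.7 CPM in superficial-like nuclei and 75.4 and 89.7 CPM in deep-like nuclei, with Amigo2 at 0 in all 4 cases. Marker sums of oligodendrocytes (94.3 and 167 CPM, 6 of 6 higher), microglia (23.4 and 39.7 CPM, 5 of 6) and interneurons (54.7 and 75.6 CPM, 5 of 6) were also higher in superficial-like nuclei of the epilepsy library. In deep-like nuclei the oligodendrocyte sum was 146 and 147 CPM, the microglia sum 29.3 and 32.5 CPM, and the interneuron sum 45.7 and 70.6 CPM. The part of RNA from other cells in the Map3k5 values was not tested.

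**Figure D2:**
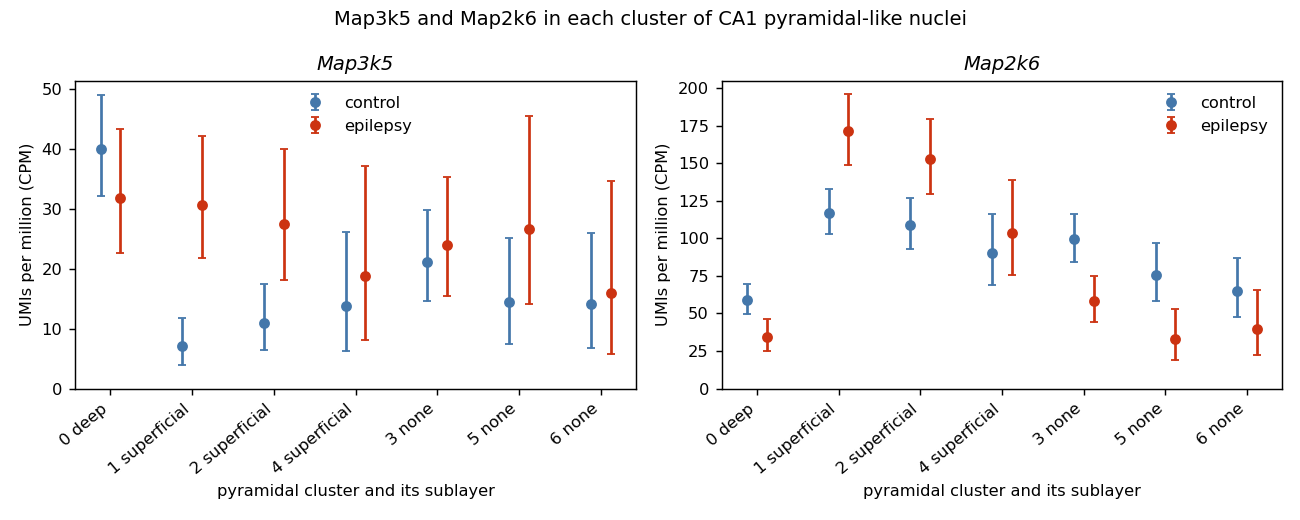
Level of Map3k5 and Map2k6 (CPM, linear axis from 0) in the 7 larger clusters of CA1 pyramidal-like nuclei in the control (blue) and epilepsy (red) library, with 95% Poisson intervals; "none" marks clusters that met neither sublayer rule. Map3k5 was higher in epilepsy in superficial clusters 1 and 2 without overlap of the intervals, while Map2k6 was higher there and lower in clusters 0, 3, 5 and 6, with overlapping intervals in cluster 6.

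Map2k6 encodes MKK6, a selective activator of p38, and had the clearest sublayer contrast at the MAP2K step. Its control level was 59.0 CPM in deep-like nuclei (133 UMIs, interval 49.4 to 69.9), 83.9 CPM in pyramidal nuclei of no sublayer (266 UMIs) and 110.1 CPM in superficial-like nuclei (475 UMIs, 100.4 to 120.4). Its epilepsy level was 34.1 CPM in deep-like nuclei (43 UMIs), 48.1 CPM in those of no sublayer (93 UMIs) and 153 CPM in superficial-like nuclei (406 UMIs). The order of the groups was the same in both libraries, and the distance between its ends was larger in epilepsy. Superficial-like nuclei had a 1.87-fold higher level than deep-like nuclei in control (1.54 to 2.28) and a 4.50-fold higher one in epilepsy (3.28 to 6.31). As log2 ratios of superficial-like to deep-like nuclei these are 0.90 and 2.17. Over 8 other settings they lay between 0.31 and 1.00 in control and between 0.89 and 2.52 in epilepsy. Between libraries the log2 ratio was −0.79 in deep-like nuclei (−1.32 to −0.28), −0.80 in those of no sublayer (−1.16 to −0.46) and 0.48 in superficial-like nuclei (0.28 to 0.67). Over all CA1 pyramidal-like nuclei the log2 ratio was 0.05. The Map2k6 level in astrocyte-like nuclei was 246 CPM in control (11 UMIs) and 325 CPM in epilepsy (9 UMIs). The summed level of 6 astrocyte markers went the same way as Map2k6 in each pyramidal group. It was 33.8 CPM in control and 44.2 CPM in epilepsy superficial-like nuclei (5 of 6 higher, Gja1 at 0 in control and Aqp4 in epilepsy). It was 51.4 and 39.7 CPM in deep-like nuclei (3 of 6 higher, Gfap at 0 in control and Aqp4 in epilepsy), and 38.2 and 26.4 CPM in those of no sublayer (3 of 6 higher, Aqp4 at 0 in both, Gja1 in control and Gfap in epilepsy). In astrocyte-like nuclei the same sum was 7684 and 10790 CPM, and the part of astrocyte RNA in the Map2k6 values was not tested.

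The 3 larger clusters that met neither sublayer rule had lower Map2k6 levels in the epilepsy library. The cluster led by Mkx and Actn2 had 99.4 CPM in control and 58.3 CPM in epilepsy. The cluster led by immediate early genes (Nr4a3, Btg2, Fos) had 75.6 and 32.7 CPM, and the cluster led by Tenm3 and Zfpm2 had 65.1 and 39.7 CPM. The log2 ratios of these 3 clusters were −0.77 (−1.22 to −0.33), −1.21 (−2.10 to −0.40) and −0.71 (−1.66 to 0.16), the last with an interval that includes 0. A further small cluster held 2 and 1 Map2k6 UMIs, too few for a ratio to be read. The sum of the 5 deep markers in the nuclei of no sublayer was also lower in epilepsy, at 726 CPM in control and 454 CPM in epilepsy, and its part in the Map2k6 value was not tested. The 3 superficial-like clusters had log2 ratios of 0.55 (0.28 to 0.82), 0.49 (0.16 to 0.81) and 0.20 (−0.40 to 0.79), the last being that of low UMI counts. Superficial markers themselves summed to 498 CPM in control and 483 CPM in epilepsy superficial-like nuclei, and deep markers to 1872 and 1693 CPM in deep-like nuclei.

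The call of Map2k6 as higher in superficial-like nuclei depended on how sublayers were drawn. Its log2 ratio was 0.27 at the coarser clustering and 0.27 with the median split, both under the threshold of 0.32, so the call was lost there. It was 0.74 with every nucleus thinned to 1000 UMIs, and the ratio was positive in all 10 other settings. The RefSeq sequence upstream of the Map2k6 start (GRCm38.p6, plus strand, chr11:110398852-110399101) is shown with that of Map3k5 (chr10:19934276-19934471, plus strand) because these were the 2 genes called higher in superficial-like nuclei of the epilepsy library. Capitals mark the match to the AP-1 motif TGANTCA.
Map2k6: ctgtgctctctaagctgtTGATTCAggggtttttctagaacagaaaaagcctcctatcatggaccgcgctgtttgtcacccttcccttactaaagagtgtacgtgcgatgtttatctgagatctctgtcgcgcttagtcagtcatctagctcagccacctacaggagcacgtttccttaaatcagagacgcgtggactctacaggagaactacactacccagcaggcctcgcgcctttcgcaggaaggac
Map3k5: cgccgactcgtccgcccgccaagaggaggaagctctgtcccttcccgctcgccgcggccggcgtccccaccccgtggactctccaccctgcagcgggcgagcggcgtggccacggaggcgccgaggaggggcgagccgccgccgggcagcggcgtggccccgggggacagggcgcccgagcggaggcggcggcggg
Both strands of the tabled windows were searched for TGANTCA and for the cyclic AMP response element TGACGTCA. The table holds 3 windows for Map2k6, of which the one shown had 1 match to TGANTCA and the other two none, and 1 window for Map3k5 with no match to either motif. TGANTCA occurs in 7.81% of the 32851 tabled windows, and in at least 1 window of 19.42% of the 721 genes with 3 windows. TGACGTCA occurs in 1.79% of windows. The stretches shown also differed in base composition, with 81.1% G and C in that of Map3k5 and 50.4% in that of Map2k6. A match is a string of letters in the window and not a measured binding site.

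Map2k3 encodes MKK3, the other p38-selective MAP2K, and its counts were low. Its level in superficial-like nuclei was 14.8 CPM in control (64 UMIs) and 10.96 CPM in epilepsy (29 UMIs), a log2 ratio of −0.44 with an interval of −1.12 to 0.22. Deep-like nuclei held 27 and 20 UMIs, under the minimum of 50 for a counted ratio, and had 12.0 and 15.9 CPM. Of the UMIs of the 2 p38-selective MAP2K genes, Map2k6 made up 88.1% in control superficial-like nuclei (85.1 to 90.7%) and 93.3% in epilepsy (90.6 to 95.5%). In deep-like nuclei its share was 83.1% in control (76.4 to 88.6%) and 68.3% in epilepsy (55.3 to 79.4%). The make-up of p38 MAP2K UMIs thus differed between the sublayers by more in the epilepsy library than in the control library.

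Map2k4 encodes MKK4, which feeds both JNK and p38, and was within the threshold in each of the 3 pyramidal groups. Its control level was 176 CPM in deep-like, 169 CPM in superficial-like and 162 CPM in nuclei of no sublayer. Its epilepsy level was 168, 141 and 148 CPM in the same order. The intervals of the 3 groups overlapped in control, and the largest log2 ratio in size was −0.26 in superficial-like nuclei (−0.45 to −0.08). Among the superficial-like clusters, the cluster of low UMI counts had 167 CPM in control (109 UMIs) and 87.1 CPM in epilepsy (37 UMIs), a log2 ratio of −0.94 (−1.52 to −0.39). Both larger clusters had log2 ratios of −0.19 (−0.46 to 0.07) and −0.14 (−0.43 to 0.15), with intervals that overlap the former. Another cluster of low UMI counts, from the clustering of all nuclei, held 283 control and 207 epilepsy nuclei. Of these, 191 and 162 were superficial-like, and without them the superficial-like log2 ratio of Map2k4 was −0.24. The ratio without the superficial-like cluster of low UMI counts is not given. Map2k7, the JNK-selective MAP2K at chr8:4238740-4247897, was listed at 0 in every nucleus of both libraries. The same-strand gene Gm49320 (chr8:4238865-4251423) covers most of it in the annotation and was also listed at 0. Whether that overlap bears on these 0 values was not tested, and they are not read as absence of the transcript.

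At the JNK step, Mapk10 was within the threshold in each pyramidal group. Mapk8 was lower in epilepsy in the deep-like group and in nuclei of no sublayer. Mapk10, the brain-enriched JNK3 gene, had 1195 CPM in control and 1304 CPM in epilepsy deep-like nuclei, and 1128 and 1144 CPM in superficial-like nuclei. Its log2 ratios were 0.13 (0.04 to 0.22) and 0.02 (−0.05 to 0.09), and in nuclei of no sublayer 0.26 (0.19 to 0.34), the levels there being 1100 and 1320 CPM. With trimmed-mean (TMM) scaling the superficial-like value became −0.09. The widest gap for Mapk10 was in the cluster led by immediate early genes, with 1173 CPM in control and 1613 CPM in epilepsy, a log2 ratio of 0.46. The cluster led by Tenm3 and Zfpm2 had 1045 and 1338 CPM, a log2 ratio of 0.36.

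Mapk8, which encodes the widely expressed JNK1, had a level of 93.5 CPM in control (211 UMIs, interval 81.3 to 107) and 65.9 CPM in epilepsy deep-like nuclei (83 UMIs, 52.5 to 81.7). These intervals overlap only at their ends, and the log2 ratio was −0.51 (−0.89 to −0.13). In superficial-like nuclei Mapk8 had 60.5 and 55.6 CPM, a log2 ratio of −0.12 (−0.42 to 0.17). Mapk8 was 1.55-fold higher in deep-like than in superficial-like nuclei of the control library (1.28 to 1.86) and 1.19-fold higher in the epilepsy library (0.895 to 1.56). Its difference of log2 ratios between the sublayers was 0.38, with an interval of −0.10 to 0.87. Mapk9, which encodes JNK2, was at 25.3 and 27.0 CPM in deep-like and at 27.8 and 34.4 CPM in superficial-like nuclei of the control and epilepsy library, and both ratios had intervals that include 0.

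The make-up of JNK UMIs differed between the libraries in pyramidal nuclei by a small amount, and between pyramidal and interneuron-like nuclei by more. Mapk10 accounted for 91.9% of JNK UMIs in control CA1 pyramidal-like nuclei (91.4 to 92.3%) and 93.2% in epilepsy (92.6 to 93.7%), intervals that do not overlap. The share of Mapk8 was 5.93% in control (5.51 to 6.37%) and 4.47% in epilepsy (4.02 to 4.95%). In deep-like nuclei the Mapk8 share was 7.12% (6.22 to 8.11%) and 4.72% (3.77 to 5.81%), again without overlap, and in superficial-like nuclei 4.97% (4.40 to 5.60%) and 4.50% (3.82 to 5.27%), with overlap. In interneuron-like nuclei Mapk10 accounted for 82.0% (79.0 to 84.7%) and 86.3% (82.3 to 89.6%). Mapk9 made up 7.58% of JNK UMIs in control interneuron-like nuclei (5.76 to 9.75%) and 2.21% in control pyramidal nuclei (1.96 to 2.49%). With every nucleus weighted equally the Mapk10 share was 81.5% and 85.7% in interneuron-like nuclei, while in oligodendrocyte-like nuclei it went from 86.1% and 87.3% to 79.1% and 79.6%, so the order of these classes depends on the weighting. These are shares of UMIs, which gene length and capture also set, and not shares of kinase protein.

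**Figure D3:**
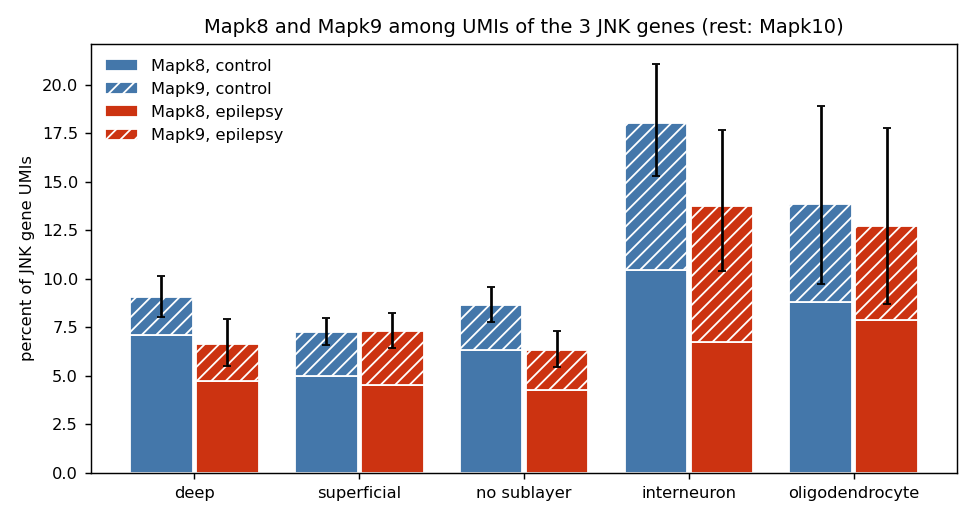
Share of Mapk8 (plain) and Mapk9 (hatched) among UMIs of the 3 JNK genes, in percent on an axis from 0, by class in the control (blue) and epilepsy (red) library; the rest is Mapk10, and the bar on top is the 95% Clopper-Pearson interval of Mapk8 and Mapk9 together. The interneuron-like columns stand above the deep-like, superficial-like and no-sublayer columns in both libraries. Mapk10 shares were 82.0% (control) and 86.3% (epilepsy) in interneuron-like nuclei. They were 91.0% and 93.4% in deep-like, 92.7% and 92.7% in superficial-like, and 91.4% and 93.6% in nuclei of no sublayer.

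At the p38 step, Mapk14 and Mapk11 had higher control levels in superficial-like than in deep-like nuclei. Mapk14 encodes p38 alpha, the form best known from inflammatory signalling, and Mapk11 encodes p38 beta. Mapk14 had 77.1 and 87.3 CPM in deep-like nuclei and 104 and 84.7 CPM in superficial-like nuclei of the control and epilepsy library. It was 1.34-fold higher in superficial-like than in deep-like nuclei of the control library (1.12 to 1.61) and 0.970-fold in epilepsy (0.768 to 1.23). Mapk11 had 6.65 CPM in deep-like (15 UMIs) and 18.1 CPM in superficial-like control nuclei (78 UMIs), a 2.72-fold higher level (1.55 to 5.09). In epilepsy it had 7.94 CPM (10 UMIs) and 14.7 CPM (39 UMIs), 1.86-fold with an interval of 0.910 to 4.17. Mapk14 made up 87.1% of p38 UMIs in control (84.8 to 89.1%) and 85.3% in epilepsy pyramidal nuclei (82.1 to 88.1%), and these intervals overlap.

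The calls in each sublayer were counted beside those over all genes. In deep-like nuclei 7 of the 10 genes had 50 UMIs; 0 were called higher in epilepsy (background 15.5% of 6655 genes) and 3 were called lower (background 21.8%), namely Map3k5, Map2k6 and Mapk8. In superficial-like nuclei 9 had 50 UMIs; Map3k5 and Map2k6 were higher (background 18.6% of 9044 genes) and Map2k3 was lower (background 15.2%). In nuclei of no sublayer, Map3k5, Map2k3 and Mapk11 were higher (3 of 9, background 15.5%), and Map2k6 and Mapk8 were lower (2 of 9, background 20.9%). The 3 higher calls had log2 ratios of 0.46 (−0.14 to 1.05), 0.33 (−0.47 to 1.11) and 0.67 (−0.05 to 1.39), and all 3 intervals include 0. The 2 lower calls had log2 ratios of −0.80 (−1.16 to −0.46) and −0.34 (−0.67 to −0.02). Under TMM scaling every superficial-like log2 ratio moved by −0.11, and the count became 2 higher and 4 lower, Map2k4, Mapk11 and Mapk14 being added with values of −0.37, −0.40 and −0.40. The share over all genes under that scaling is not given. The plot of ratios by class shows each gene with its interval.

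**Figure D4:**
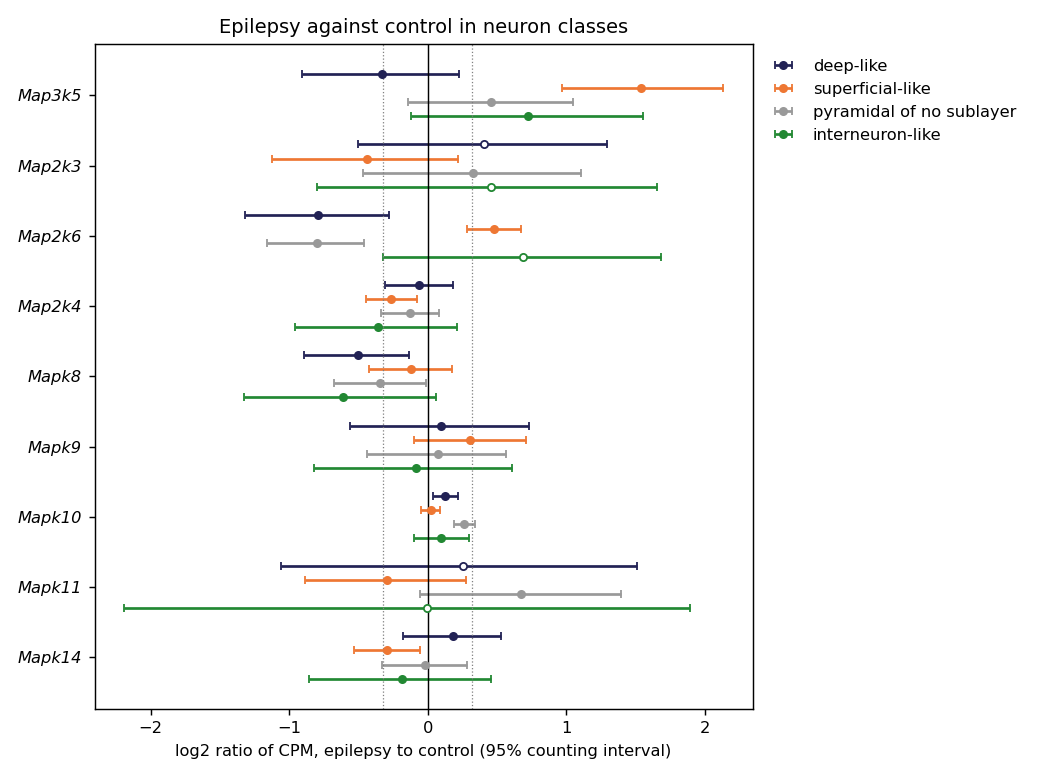
Log2 ratio of CPM, epilepsy to control, for 9 genes in 4 neuron classes, each point with its 95% counting interval; open points have under 50 UMIs and dotted lines mark 0.32 in either direction. Map2k6 lies at −0.79 in deep-like and 0.48 in superficial-like nuclei, and Map3k5 at 1.54 in superficial-like nuclei, while Mapk10 lies between the dotted lines in each.

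Within each library, superficial-like nuclei were compared with deep-like nuclei. In the control library Map2k6, Mapk11 and Mapk14 were called higher in superficial-like nuclei by the same threshold, 3 of 9 genes against a background of 24.4%. Map3k5 and Mapk8 were called lower there, 2 of 9 against 12.7%. Over 8 other settings these log2 ratios lay between 0.14 and 0.53 for Mapk14, 0.31 and 1.00 for Map2k6, and −0.72 and −0.31 for Mapk8. These 3 ranges reach under the threshold, so the calls were not kept in every setting. The ranges of Mapk11 (0.70 to 1.60) and Map3k5 (−2.22 to −1.38) stayed past it. In the epilepsy library 7 genes were counted, of which Map2k6 and Mapk9 were higher (background 32.5%) and 0 were lower (background 14.5%). The Mapk9 ratio of 1.27-fold in epilepsy had an interval of 0.851 to 1.95 and changed sign, to a log2 ratio of −0.14, with the median split. The sublayers were named by Calb1, Ndst4 and further markers, and none of the 10 genes entered the clustering, although their levels can follow genes that did.

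The epilepsy-to-control ratio in superficial-like nuclei was then set against that in deep-like nuclei. Over 7 counted genes this difference of log2 ratios was at least 0.32 upward for Map3k5, at 1.87 (1.05 to 2.69), for Map2k6, at 1.27 (0.72 to 1.84), and for Mapk8. It was at least 0.32 downward for Mapk14, at −0.47 (−0.90 to −0.04). Over 6631 genes 21.8% were that far upward and 14.6% that far downward. Map3k5 and Map2k6 were lower in deep-like and higher in superficial-like nuclei by at least 0.32 each, as were 1.57% of the 6631 genes. Opposite directions of that size, whichever sublayer was the higher, occurred in 2 of the 7 counted genes and in 2.28% of the 6631. With the median split the Map2k6 difference was 0.57, and the Map3k5 difference lay between 1.13 and 1.93 over its 9 other settings.

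**Figure D5:**
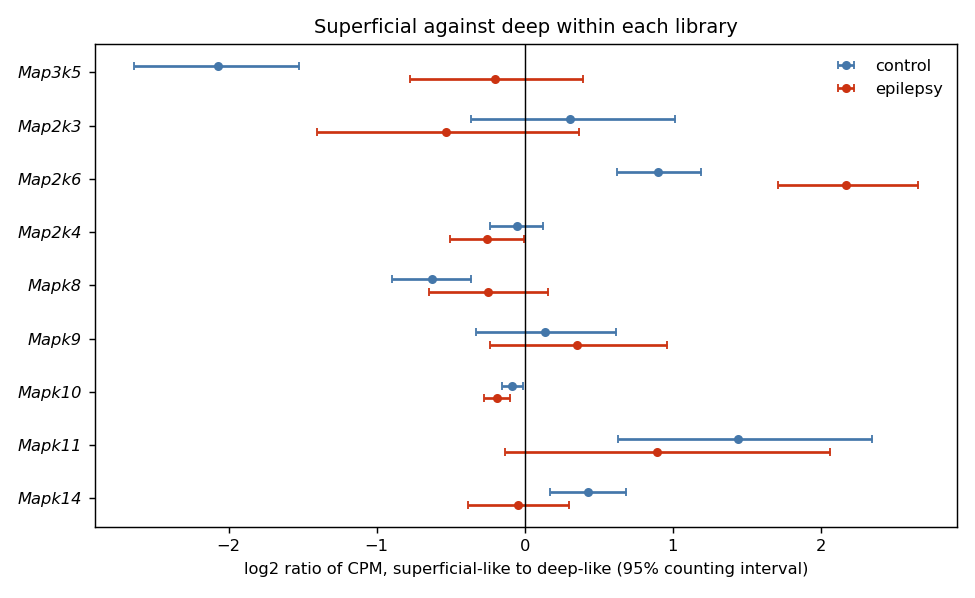
Log2 ratio of CPM, superficial-like to deep-like nuclei, for 9 genes within the control (blue) and the epilepsy (red) library, with 95% counting intervals. Map3k5 lies at −2.07 in control and −0.20 in epilepsy, and Map2k6 at 0.90 in control and 2.17 in epilepsy; in both genes the 2 intervals do not overlap.

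Interneuron-like nuclei carried the branch as well, with some levels above those of pyramidal nuclei. In the control library Mapk9 was at 83.6 CPM there, 306% of its level in CA1 pyramidal-like nuclei (225 to 411%), Map3k5 at 44.1 CPM or 231% (150.5 to 343%), and Mapk8 at 116 CPM or 158% (123 to 200.2%). Map2k6 was at 31.9 CPM or 35.6% (21.9 to 54.7%). The summed CA1 pyramidal markers stood at 24.3% of their pyramidal level in the same nuclei (22.2 to 26.5%), single markers lying between 3.24% and 69.3%, so the sum does not give the amount of pyramidal RNA there. Of 6 genes with 50 UMIs, Map3k5 was called higher in epilepsy (background 17.4% of 3376 genes), and Map2k4 and Mapk8 were called lower (background 19.5%). Their log2 ratios were 0.72 (−0.12 to 1.55), −0.36 (−0.96 to 0.21) and −0.61 (−1.32 to 0.06), and all 3 intervals include 0.

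Counts of Map3k5 in the 3 interneuron-like clusters were each under 50 UMIs. The intervals of their ratios overlap, which does not decide whether the clusters differ, and a difference between them was not tested. In the cluster led by Tll1, Nxph1 and Cdh13 the level was 32.4 CPM in control (10 UMIs) and 98.4 CPM in epilepsy (15 UMIs), a log2 ratio of 1.60 (0.35 to 2.92). In the cluster led by Adarb2 it was 54.8 and 80.4 CPM, 0.55 (−0.99 to 2.05). In the cluster led by Adra1a and Fgf13 it was 54.0 CPM (9 UMIs) and 12.7 CPM (1 UMI), −2.08 (−7.54 to 0.77). In that last cluster Mapk9 was at 150.0 CPM in control (25 UMIs) and 38.2 CPM in epilepsy (3 UMIs), a log2 ratio of −1.97 (−4.35 to −0.26).

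In glial classes the levels are given beside those of the CA1 pyramidal markers in the same nuclei. The summed CA1 pyramidal markers stood at 58.9% of their pyramidal level in oligodendrocyte-like nuclei of the control library (single markers 44.9 to 76.2%) and 51.2% in epilepsy (41.7 to 82.8%). Mapk10 stood at 54.6% (47.3 to 62.7%) and 53.1% (45.9 to 61.2%), which is within the range of single markers. Mapk14 stood at 106% in control (71.3 to 151%) and 128% in epilepsy (86.9 to 184%), with 93.7 and 106 CPM. Its control interval overlaps the range of single markers, and its epilepsy interval lies above that range. Mapk9 stood at 133% (67.7 to 236%) and 116% (57.1 to 213%) on 12 and 11 UMIs, with overlap in both libraries. Map2k4, at 64.6% and 77.3%, was within the range. Between libraries 3 genes had 50 UMIs in oligodendrocyte-like nuclei and 0 were called in either direction (background 19.5% and 19.7% of 2349 genes). In microglia-like nuclei Mapk10 was the only gene counted, with a log2 ratio of −0.32 (−0.88 to 0.23) that was within the threshold (background 19.6% higher and 31.2% lower of 439 genes), and the pyramidal markers stood at 85.4% (single markers 21.9 to 124%) and 66.3% (0 to 108%) of their pyramidal level. In astrocyte-like nuclei (29 and 31) the Map2k6 level was 275% of its pyramidal level in control (137 to 494%) and 349.9% in epilepsy (159 to 669%), while the pyramidal markers stood at 48.2% (single markers 0 to 72.8%) and 14.0% (0 to 121%).

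Genes that surround these kinases in the pathway were mostly within the threshold. Of 53 listed partners, 34 had 50 UMIs in CA1 pyramidal-like nuclei; 2 were called higher (background 17.9%) and 4 lower (15.9%), and their median log2 ratio was −0.05. Mapk8ip1, the JIP1 scaffold that holds JNK with its activators, was at 29.7 CPM in control and 38.4 CPM in epilepsy, a log2 ratio of 0.37 (0.11 to 0.63), and at 0.54 (0.16 to 0.91) in superficial-like nuclei. Mef2c, a transcription factor that p38 phosphorylates, was at 23.8 and 15.8 CPM, −0.60 (−0.96 to −0.24). Tab3, a partner of the kinase TAK1, was at 15.6 and 10.4 CPM, −0.58 (−1.03 to −0.14). Mef2c and Tab3 were called lower in deep-like, in superficial-like and in nuclei of no sublayer alike. Map3k9, a mixed-lineage kinase upstream of JNK, was at 7.90 and 5.31 CPM with an interval that includes 0.

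The partners were also counted by role in CA1 pyramidal-like nuclei, where the background was 17.9% higher and 15.9% lower. Of 12 further MAP3K and TAO kinases counted, 0 were higher and 1 lower. All 6 scaffolds were counted, of which 1 was higher and 0 lower. Of 5 dual-specificity phosphatases, the enzymes that switch off p38 and JNK, 1 had 50 UMIs and it was within the threshold. The ERK branch, the growth-factor arm of the MAP kinases, served as a neighbour for comparison. Of its 12 genes 10 were counted in the same nuclei, with the same background. Of these, 0 were higher and 1 lower (Mapk7, which encodes ERK5, at 17.5 and 13.9 CPM), with a median log2 ratio of −0.10.

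For 5 of the kinases the genes with the most similar profile over 6 classes in each library were sought among 2836 genes, by Pearson correlation of log2(CPM + 1) over 12 profiles. The profiles share libraries, depth and pyramidal RNA, so the values are descriptive. Mapk10 was most like Col4a1 (0.97) and Ptprn2 (0.96), and Map2k4 most like Tasp1 (0.96) and Nup93 (0.96). Mapk14 was most like Smc6 (0.93), Mapk8 most like Ggt7 (0.92), and Map2k6 most like Pou2f2, Pdcd4 and Ephb2 (0.88 each).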

How the data were processed

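The deposited files hold, per library, raw UMI counts for each gene and nucleus as the authors made them, with no normalization; FastQC and Cell Ranger 2.2.0 with GRCm38 (mm10) were used, per the submitters' processing notes. The sources used here give neither the annotation nor the intron setting. The genes, lists and tests were chosen with earlier results of these data known; all 10 genes are named, and partners were named from 100 UMIs and a log2 ratio of 0.32.

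Nuclei needed 200 detected genes and under 5% mitochondrial UMIs (0 removed). Scrublet's automatic threshold marked 6 control and 4 epilepsy nuclei, so the 3% of highest score were removed instead (110 and 92). After leaving out the pathway genes, 2000 variable genes, standardised per library, gave 30 components, a 20-neighbour graph and Leiden clusters at resolution 1.0 (scanpy 1.11.5, leidenalg 0.10.2). Clusters were named from marker lists, with thresholds set after clusters had been seen; pyramidal nuclei were clustered again. A cluster of 24 control and 13 epilepsy nuclei stayed unnamed. The pyramidal class includes a cluster of low UMI counts (283 control and 207 epilepsy nuclei).

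UMI sums of each class in a library were divided by their total. Intervals (95%) are exact Poisson for levels, exact conditional binomial for ratios and Clopper-Pearson for shares. Only those of ratios and of differences of ratios were run on simulated data. The simulated counts were independent Poisson draws, which the intervals assume, so variation between nuclei, mice or libraries was not covered. A ratio needed 30 nuclei per library, and a count of genes 50 UMIs and a log2 ratio of 0.32 in size. Alternatives covered filters, doublets, centring, resolution, TMM factors (edgeR 4.0.16, R 4.3.3), weighting, thinning and sublayer rule. Promoters are RefSeq's and coding sequences GENCODE M21's; 30330 of 30431 gene IDs matched the latter.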

Additional observations from a re-analysis of the deposited data

Results flagged for a closer look

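Map3k5 and Map2k6 were singled out because, with 50 UMIs in both sublayers, their epilepsy-to-control log2 ratio was at least 0.32 in size and of opposite sign in deep-like and superficial-like nuclei. They were 2 of 7 counted genes, and 2.28% of 6631 genes met the same rule. The log2 ratio of Map3k5 was −0.33 in deep-like and 1.54 in superficial-like nuclei. That of Map2k6 was −0.79 in deep-like and 0.48 in superficial-like nuclei. With 1 library per condition the difference between sublayers was not tested, and the deep-like Map3k5 value has a counting interval that includes 0. Other genes also had opposite signs without meeting this rule: Mapk14, at 0.18 in deep-like and −0.29 in superficial-like nuclei, was within the threshold in both, and Map2k3 (0.41 and −0.44) and Mapk11 (0.26 and −0.29) had under 50 UMIs in deep-like nuclei.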

How the results depend on the processing

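No paired analysis was possible because each condition has 1 library, and no replicate could be left out for the same reason. Of the values for single genes, 441 were within their counting interval under the alternatives, 22 moved beyond it and 3 were counted as reversed. Of these 3, 2 were Map3k5 in deep-like nuclei (0.076 with doublets kept, 0.12 with the median split). The other was Mapk9 superficial against deep in epilepsy (−0.14 with the median split). Further values also changed sign but were counted among the 441 or the 22. Among them, in superficial-like nuclei, Mapk10 went from 0.02 to as low as −0.09, and Mapk8 from −0.12 to as high as 0.04. In deep-like nuclei Mapk9 went from 0.09 to −0.04, Mapk14 from 0.18 to −0.03 and Map2k4 from −0.06 to 0.05. The Map2k6 difference of ratios was 0.57 with the median split. Of the counts of genes past the fold and the medians, with those differences, 128 values were counted as alike and 33 moved. Some values counted as alike still differed from the main setting. They reached 3 higher in superficial-like and 3 lower in interneuron-like nuclei, where the main setting gave 2 each. No share over all genes is given for the other settings, so these counts and those that follow have no background beside them. With a fold of 1.5, the counts became 0 higher in CA1 pyramidal-like, 1 lower in deep-like, 1 higher and 0 lower in superficial-like and 1 lower in interneuron-like nuclei. A minimum of 20 UMIs gave 1 higher in deep-like and 3 higher in interneuron-like nuclei. A minimum of 200 UMIs gave 1 lower in deep-like, 1 higher and 0 lower in superficial-like, and 0 higher and 0 lower in interneuron-like nuclei. TMM factors gave 1 lower in CA1 pyramidal-like and 4 lower in superficial-like nuclei, and equal weight per nucleus 1 lower in CA1 pyramidal-like and 1 lower in interneuron-like nuclei. Thinning to 1000 UMIs gave 2 higher in CA1 pyramidal-like, 1 higher and 1 lower in deep-like, 1 higher in superficial-like, and 0 higher and 0 lower in interneuron-like nuclei. Keeping doublets gave 1 lower in interneuron-like, and no centring by library 2 lower in superficial-like nuclei. Leiden resolution 0.5 gave 1 higher and 2 lower in superficial-like nuclei, and resolution 2.0 gave 2 lower in superficial-like and 0 higher in interneuron-like nuclei. The median split, chosen after seeing the data, gave 1 higher and 1 lower in deep-like, and 1 higher and 0 lower in superficial-like nuclei. A stricter minimum or thinning leaves fewer genes to count; for the other moves the cause was not tested. Leaving out the low-UMI cluster from the clustering of all nuclei (283 control and 207 epilepsy nuclei), also chosen after seeing the data, moved no value beyond its interval.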
